A study of Drosophila melanogaster with 4 samples.

Results

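The centromere-side ends of chromosome arms 2L, 3L and 3R are the last 2 Mb of assembled sequence before the pericentric gap on 3 of the large autosomal arms of Drosophila melanogaster. They were taken as 2L:21011545-23011544, 3L:22543558-24543557 and 3R:1-2000000 on FlyBase release 5, and a region enriched for the histone variant H2Av belonged to an end when its midpoint lay inside. By this rule the ends held 613 of 9667 regions in the list of ChIP replicate 1, 348 of 4664 in that of ChIP replicate 2 and 530 of 7944 in the combined list of the series. The rule used position alone, so coverage, width and score are free of it, but the ends were chosen with earlier results of these data known.

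H2Av was mapped by chromatin immunoprecipitation and sequencing (ChIP-seq) in nuclei of Oregon-R, a wild-type strain, at the third larval instar. Tissues were homogenized and fixed with formaldehyde, and the chromatin was sonicated. The 2 ChIP libraries and 2 input libraries share strain, stage and genotype, and the data hold no treatment, mutant or second stage. Whole larvae mix many tissues, so a region is an average over their nuclei. Separate collections of larvae are not stated for the replicates, and the spread between them may be technical.

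H2Av replaces the canonical histone H2A in a share of nucleosomes and does in flies the work that H2A.Z and H2A.X divide between them in other animals. It is known from nucleosomes downstream of active promoters, from the response to DNA breaks, where its tail is phosphorylated, and from the making of heterochromatin, since flies short of H2Av silence genes placed near heterochromatin less well. The base of each large autosomal arm is where gene-rich euchromatin gives way to pericentric heterochromatin, which is dense in repeats and transposon remnants, marked by methylation of histone H3 lysine 9 and bound by HP1. Genes do lie there, and light, at the base of 2L, is the classical example of a gene that works less well when moved away from heterochromatin. The assembled end is not the centromere: more heterochromatin, in part held in separate scaffolds that are not used here, lies beyond it. Distances below run from the assembled end outward.

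H2Av regions took up a larger share of each end than of the rest of its arm in every list. Pooled over the 3 ends, replicate 1 covered 49.9% of bases and replicate 2 covered 28.6%, against 23.9% and 17.4% for the remainder of the 3 arms. The fold was 2.09 in replicate 1 and 1.64 in replicate 2. On 2L the end had 51.1% and 29.7% of its bases in regions in replicates 1 and 2, against 23.4% and 16.5% on the rest of the arm, a difference of 20.4 ± 10.2 percentage points (SD, n = 2). On 3L these were 57.3% and 29.6%, against 24.2% and 17.2% (22.8 ± 14.6 points, SD, n = 2). On 3R they were 41.3% and 26.5%, against 24.0% and 18.4% (12.7 ± 6.52 points, SD, n = 2). The direction was the same in both replicates on all 3 arms. The size was not: it was at least 2 times larger in replicate 1 on each arm. With 2 replicates and no second group, an exact sign-flip test over samples cannot go below p = 0.5, so none of the comparisons here carries a test.

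The excess did not extend evenly into the arm. The next 2 Mb outward had 28.6% and 21.0% of bases in regions on 2L in replicates 1 and 2, and 25.95% and 19.4% on 3L. On 3R the next 2 Mb had 22.1% and 10.98%, below the 24.0% and 18.4% of that arm outside the end. The 2 Mb at the telomere side, the other tip of each arm, had 19.3% and 16.0% on 2L, 23.9% and 21.6% on 3L and 17.7% and 13.9% on 3R. When each arm was laid out in consecutive stretches of 2 Mb, none of the other 10 on 2L or 11 on 3L reached the coverage of the end in either replicate. Among the other 12 on 3R none did in replicate 1, and 2 did in replicate 2, where the end had 26.5% against 28.4% in the higher of them.

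**Figure D1:**
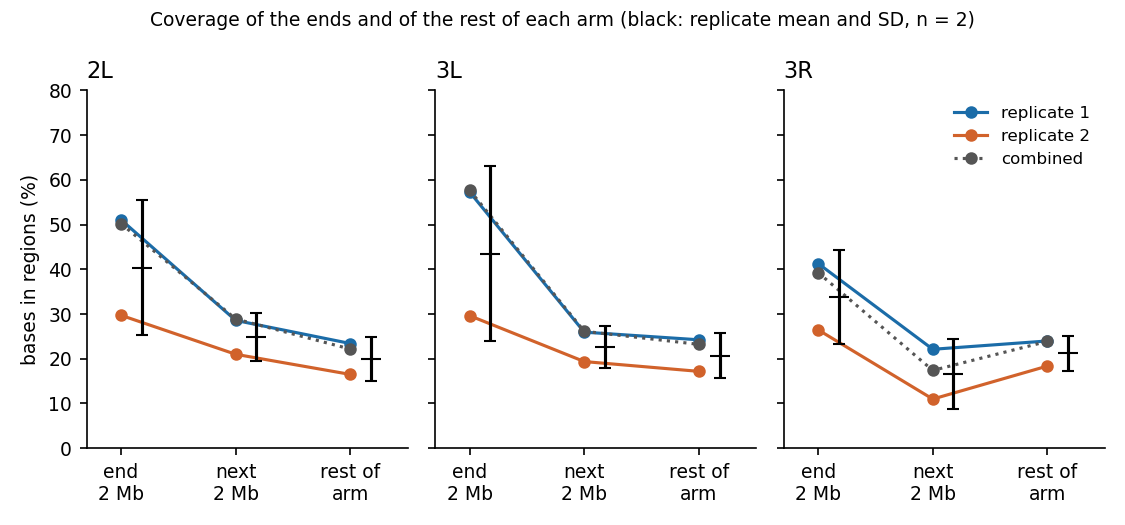
Percent of bases in H2Av regions (vertical axis) in the centromere-side 2 Mb, the next 2 Mb and the whole rest of 2L, 3L and 3R. Coloured points are the 3 region lists, and black bars give the mean and SD of the 2 replicates. Every list is highest in the end, and replicate 2 is below replicate 1 in every stretch drawn.

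The ends were richer both in number of regions and, in replicate 1, in their width. Replicate 1 had 102.2 regions per Mb in the 3 ends against 65.8 per Mb on the rest of the arms, and replicate 2 had 58.0 against 32.3. By arm, the ends of 2L, 3L and 3R held 88.0, 113.0 and 105.5 regions per Mb in replicate 1 and 51.5, 68.5 and 54.0 in replicate 2. The mean width in the 3 ends was 4885 bp in replicate 1 against 3631 bp on the rest, while in replicate 2 it was 4933 bp against 5398 bp. Pooled over the 3 ends, the higher coverage in replicate 2 thus went with more regions, and that in replicate 1 with more and wider ones. By arm, mean width in replicate 2 was smaller in the end on 3L and 3R. On 2L it was slightly larger, 5770 bp against 5663 bp. Calls of regions shift with read depth and threshold, neither of which is known here.

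In steps of 100 kb, coverage varied widely along the ends, and the place that best parted higher from lower steps differed between arms. The 20 steps of each end were divided where 2 levels left the least squared error. This split lay at 900 kb on 2L in both replicates and the combined list, at 1600 kb on 3L in replicate 1 and the combined list and at 1500 kb there in replicate 2, and at 1700 kb on 3R in all 3. On 2L the mean over steps inside the split was 67.7% in replicate 1 and 46.0% in replicate 2, against 37.5% and 16.4% in the steps beyond it. On 3L it was 64.7% and 35.8%, against 27.5% and 11.3%. On 3R it was 47.0% and 30.8%, against 8.73% and 2.00%. The split was placed to part these same values, so a gap between the 2 means arises by construction and is no test. The 2 levels took up 25.0% to 66.2% of the variance between steps in the replicates, so steps also varied within each side. In replicate 2 the inner 500 kb of 3L had 18.5%, near the 17.2% of the rest of that arm, and of the 500 kb stretches there the one at 1000 to 1500 kb was highest, with 45.3%. On 3R replicate 2 had 12.1% at 500 to 1000 kb, below the 18.4% of the rest of that arm. In steps of 200 kb, a size chosen after seeing the data, the split on 3R lay at 600 kb in replicate 1 and at 1800 kb in replicate 2. The combined list is made from the same libraries and adds no independent sample.

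**Figure D2:**
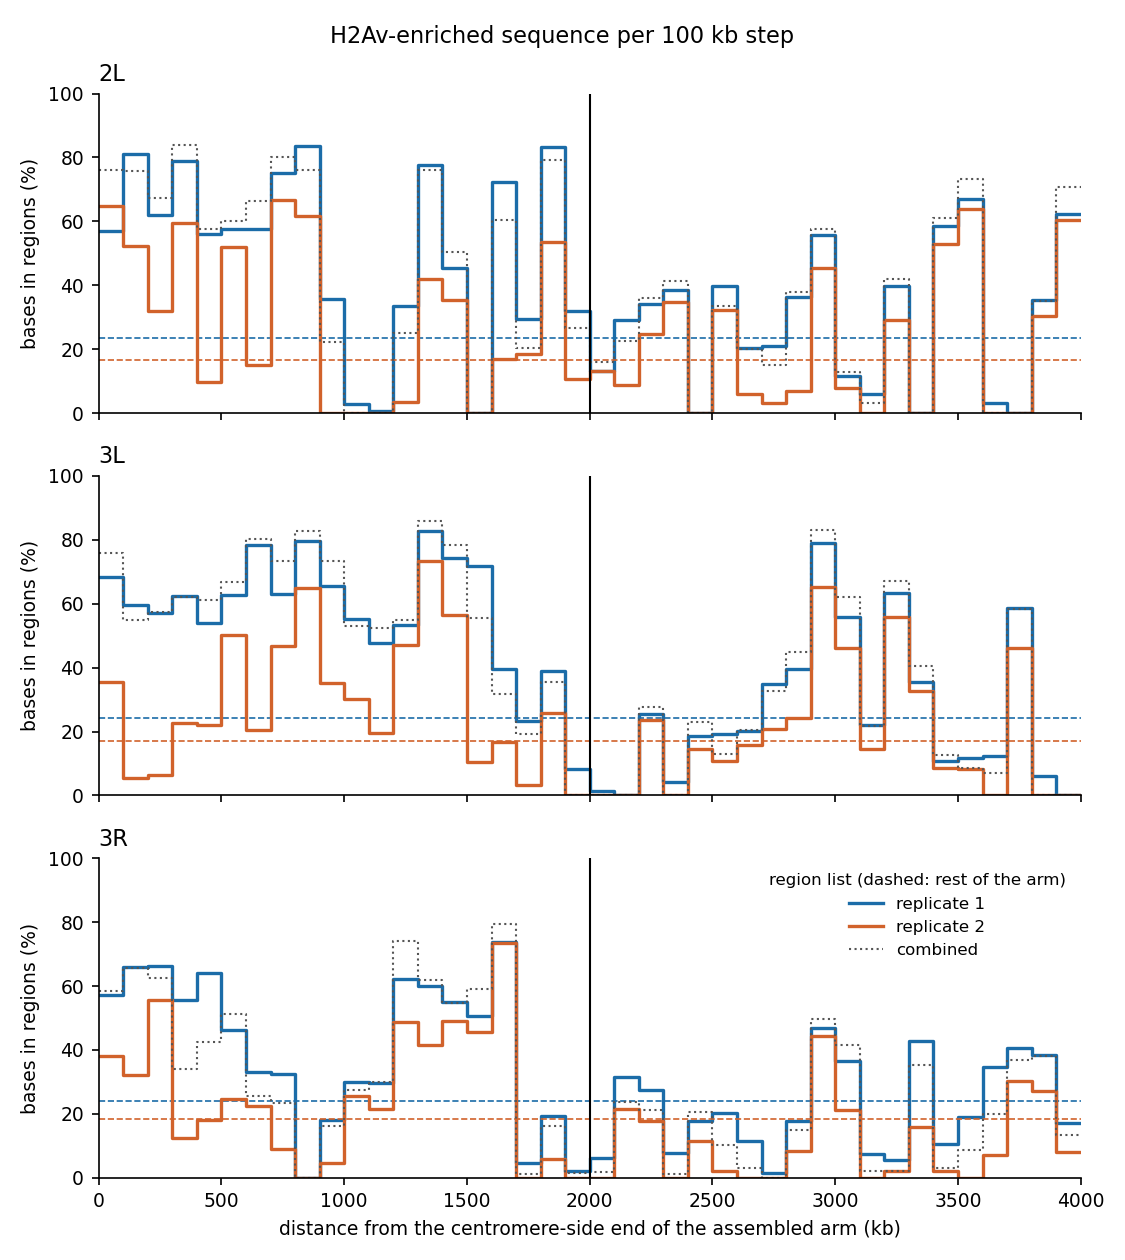
Percent of bases in H2Av regions per 100 kb step against distance from the assembled centromere-side end, for the end (left of the vertical line) and the next 2 Mb. Solid lines are the replicates, the dotted line the combined list, and dashed lines the mean of the rest of the arm in each replicate. The split between higher and lower steps lies at 900 kb on 2L, at 1500 or 1600 kb on 3L and at 1700 kb on 3R, and 3R has a hole at 800 to 900 kb.

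Distance alone ranked the steps weakly by coverage. The Spearman correlation of step coverage with distance was -0.33 and -0.36 on 2L in replicates 1 and 2. It was -0.38 and -0.13 on 3L and -0.41 and -0.14 on 3R. Each value is over 20 neighbouring steps of 1 library, which are not independent, and is given as a description.

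In steps of 100 kb, the stretch inside the split was shortest on 2L. In steps of 200 kb it was shorter on 3R in replicate 1, at 600 kb, than on 2L, at 1000 kb. The stretch is called the plateau here, though it was not level, and on 3R it held an empty step. On 2L the 9 steps inside the split had 56.0% to 83.6% of bases in regions in replicate 1. All were above the 23.4% of the rest of the arm. In replicate 2 they had 9.74% to 66.6%, and 7 of them were above the 16.5% of the rest of the arm. The 2 exceptions in replicate 2, at 400 to 500 kb and 600 to 700 kb, had 9.74% and 15.1%, where replicate 1 had 56.0% and 57.7%. At 900 kb the coverage of replicate 2 ended altogether: the step inside had 61.7%, the next 3 held no region base, and the empty stretch ran for 352.0 kb from 21759578 to 22111574. Replicate 1 faded over the same place, with 83.6%, 35.7%, 2.85% and 0.597% in the steps from 800 to 1200 kb.

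Beyond that hole, regions on 2L returned. Of the 11 steps outside the split, 8 in replicate 1 and 5 in replicate 2 were above the rest of the arm, and the step at 1800 to 1900 kb reached 83.2% and 53.6%. A second hole lay at 1500 to 1600 kb, where neither replicate nor the combined list had a region base. It was the longest stretch of the 2L end without a region of any list, 120.5 kb from 21409269 to 21529763. The split of 2L therefore marks where the plateau ended, and not the last place of high coverage.

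In replicate 1 the end of 3L was covered most continuously of the 3 ends. There all 16 steps inside its split had 47.8% to 82.9% of bases in regions, and no step of the end was empty. In replicate 2 the 15 steps inside its split ranged from 5.54% to 73.2%, and 13 of them were above the 17.2% of the rest of the arm. Both replicates were highest at 1300 to 1400 kb, with 82.9% and 73.2%. Outside, coverage went down in replicate 1 to 39.5% at 1600 to 1700 kb and 8.34% in the outermost step, while replicate 2 had 16.7% and no region base in these steps. The longest stretch of the 3L end without a region of any list was 64.3 kb, from 22789616 to 22853912, which is the shortest such maximum of the 3 ends.

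In replicate 1 the end of 3R had a pair of covered blocks with a hole between them. Replicate 1 had 55.5% to 66.1% in the 5 steps nearest the assembled end and 50.6% to 73.7% in those from 1200 to 1700 kb. Replicate 2 had 12.5% to 55.8% and 41.6% to 73.4% in the same steps. Its inner block was broken, with 12.5% at 300 to 400 kb and 18.2% at 400 to 500 kb. Both are below the 18.4% of the rest of the arm. No replicate 2 region lay from 317753 to 458242, a stretch of 140.5 kb. Outward of the inner block, replicate 1 still had 32.4% to 46.3% in the steps from 500 to 800 kb, above its 24.0% on the rest. Between the blocks, the step at 800 to 900 kb was empty in all 3 lists, inside a stretch of 152.5 kb from 799169 to 951672 without any region. The outer edge was the sharpest of the 3 ends: at 1600 to 1700 kb the replicates had 73.7% and 73.4%, and at 1700 to 1800 kb they had 4.60% and 0%. Coverage of the inner 1 Mb of 3R exceeded that of the outer 1 Mb in replicate 1 (43.9% against 38.7%) and not in replicate 2 (21.8% against 31.2%).

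**Figure D3:**
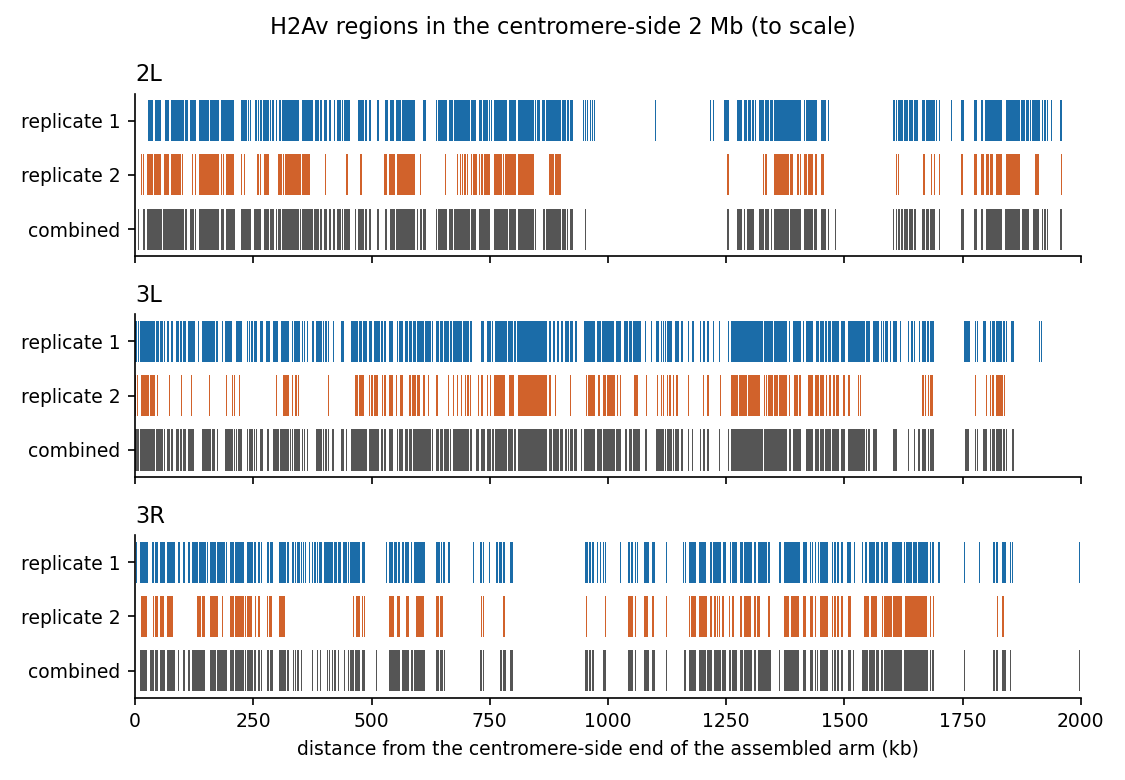
Map of the H2Av regions in the 3 ends, each drawn to scale by its distance in kb from the assembled centromere-side end, with a row for each region list. Some empty stretches line up across the lists, as at 1500 to 1600 kb on 2L and 800 to 900 kb on 3R. Others are empty in replicate 2 alone, as at 318 to 458 kb on 3R. Replicate 2 is sparser than replicate 1 in the inner 500 kb of 3L.

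Across all 60 steps, every step above the rest of its arm in replicate 2 was so in replicate 1 too, and not the reverse. Both were above the rest of their arm in 38 steps, replicate 1 alone in 12, replicate 2 alone in 0, and neither in 10. No such count is given outside the ends, so these values do not show an agreement particular to the ends. Coverage was higher in replicate 1 in 57 steps, higher in replicate 2 in 1 and equal, at 0, in 2. The exception was the step next to the assembled end of 2L, with 56.9% in replicate 1 and 64.6% in replicate 2. The Pearson correlation of step coverage was 0.79 on 2L, 0.64 on 3L and 0.83 on 3R over 20 steps each, which share library and position.

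When the ends were cut into stretches of 500 kb, the inner 500 kb of 3L was where the replicates stood farthest apart. Replicate 1 covered 60.3% of it with 62 regions and replicate 2 covered 18.5% with 29 regions. In the steps at 100 to 200 kb and 200 to 300 kb, replicate 1 had 59.6% and 56.9% and replicate 2 had 5.54% and 6.55%, a ratio of 10.8 and 8.70. The next 500 kb outward had 69.9% in replicate 1 and 43.5% in replicate 2. The largest difference of a single step was 61.1 points, at 1500 to 1600 kb of 3L, where replicate 1 had 71.8% and replicate 2 had 10.6%. Over the whole ends the ratio of replicate 1 to replicate 2 in covered bases was 1.72 on 2L, 1.93 on 3L and 1.56 on 3R, against 1.42, 1.41 and 1.31 on the rest of the same arms. The size of the excess in the ends thus differed with the library, on 3L most of all.

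Widths moved differently in the replicates. In replicate 1 the median width was larger in the end than on the rest of the arm for all 3 arms, with 3642 bp against 2422 bp on 2L, 2994 bp against 2617 bp on 3L and 2688 bp against 2519 bp on 3R. In replicate 2 it was 3623 bp against 3855 bp on 2L, 2514 bp against 3796 bp on 3L and 3824 bp against 3746 bp on 3R. Mean differences over the replicates were 494.5 ± 1027, -453 ± 1173 and 124 ± 64.0 bp (SD, n = 2) on 2L, 3L and 3R. On 2L and 3L the spread between replicates exceeded the difference.

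Regions 10 kb wide or wider, called broad here, were 11.6% of those in the 3 ends in replicate 1, against 4.66% on the rest of the arms. In replicate 2 they were 11.2% against 12.0%, and in the combined list 14.0% against 9.40%. The 2L end had the most in each list, with 32 of 176 in replicate 1, 18 of 103 in replicate 2 and 29 of 150 in the combined list. There they held 48.3% and 49.9% of region bases in replicates 1 and 2, against 22.6% and 37.7% outside the end. On 3L they held 38.5% and 36.2%, against 17.3% and 30.1%, and on 3R 21.8% and 21.2%, against 17.3% and 36.2%. Broad regions thus held a larger share of the end than of the rest in both replicates on 2L and 3L, and in replicate 1 alone on 3R.

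Along the ends, the step with the largest median width differed between arms and, on 2L and 3R, between replicates. On 3L the step at 1300 to 1400 kb had a median width of 10638 bp in replicate 1 and 7794 bp in replicate 2, the highest of that end in each. On 2L it was the step nearest the assembled end in replicate 1, with 12900 bp over 4 regions, and that at 800 to 900 kb in replicate 2, with 11742 bp over 3. On 3R it was the step at 200 to 300 kb in replicate 1, with 4862 bp over 10 regions, and the one nearest the assembled end in replicate 2, with 6355 bp over 7. The Spearman correlation of median step width with distance on 3L was -0.41 in replicate 1 over 20 steps and 0.65 in replicate 2 over 19. In replicate 2 the 5 steps nearest the end of 3L had medians of 1652 to 2231 bp, and those of replicate 1 had 2513 to 5552 bp. The sparse coverage of replicate 2 there went with narrow regions. Its 29 regions in these 500 kb were fewer than the 62 of replicate 1. They were not few for its own list, which had 32.8 per Mb on the rest of 3L.

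Scores of the authors, which have no stated scale, were ranked within each arm and list, so that 50 is the middle of the arm. In replicate 1 regions of the 2L and 3L ends ranked high, with a median percentile of 74.1 and 72.9, and those of the 3R end did not, with 51.5. In replicate 2 the medians were 48.5, 37.9 and 41.1. Of the highest-scoring 10% of regions of each arm in replicate 1, the end held 48 of 152 on 2L, 74 of 172 on 3L and 23 of 195 on 3R. In replicate 2 it held 18 of 72, 14 of 88 and 11 of 100. The end held 8.69% of the length of 2L, 8.15% of 3L and 7.17% of 3R. By region count, 11.6%, 13.1% and 10.8% of each arm's regions lay in the end in replicate 1 and 14.4%, 15.6% and 10.8% in replicate 2.

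Scores of replicate 1 on 3L were also higher inside the split than beyond it, though not level. The median percentile per step was 53.1 to 92.2 in the 16 inner steps and 26.1 to 52.3 in the 4 outer ones. The Spearman correlation of median step score with distance, over steps that held a region, was -0.65 and -0.18 on 3L in replicates 1 and 2. It was -0.55 and -0.41 on 2L and -0.11 and -0.02 on 3R, with no test. In the inner 500 kb the median percentile was 90.0 in replicate 1 and 30.8 in replicate 2, whose regions there had a median score of 0.68 against 0.93 on the rest of the arm. On 2L the step medians of replicate 1 were 70.3 to 97.5 inside the split, and those of replicate 2 were 25.0 to 82.4. On 3R the step at 1000 to 1100 kb had the highest step median in both replicates, 93.6 over 8 regions and 87.8 over 5. The step before it, which borders the empty stretch, had 14.9 over 10 regions in replicate 1 and 32.2 over 2 in replicate 2.

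Wider regions generally had higher scores, and this relation was looser in the ends of 2L and 3L. The Spearman correlation of width and score across regions of the end was 0.64 on 2L and 0.61 on 3L in replicate 1, against 0.72 and 0.75 on the rest of the arm, and 0.48 and 0.37 in replicate 2, against 0.78 and 0.76. On 3R it was 0.74 and 0.79, against 0.76 and 0.76. These values describe regions that share a library and carry no test. Under 10 kb, the median score in the 3 ends was 0.87 in replicate 1, against 0.71 on the rest of the arms, and 0.74 in replicate 2, against 0.86. At 10 kb or more it was 1.56 against 1.21 in replicate 1 and 1.24 against 1.30 in replicate 2. Over the 3 ends pooled the replicates thus differed in direction within each width class. On 3R alone they did not: under 10 kb the end had 0.68 and 0.75 in replicates 1 and 2, against 0.70 and 0.84 on the rest of the arm, and at 10 kb or more 1.38 and 1.56, against 1.21 and 1.28.

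**Figure D4:**
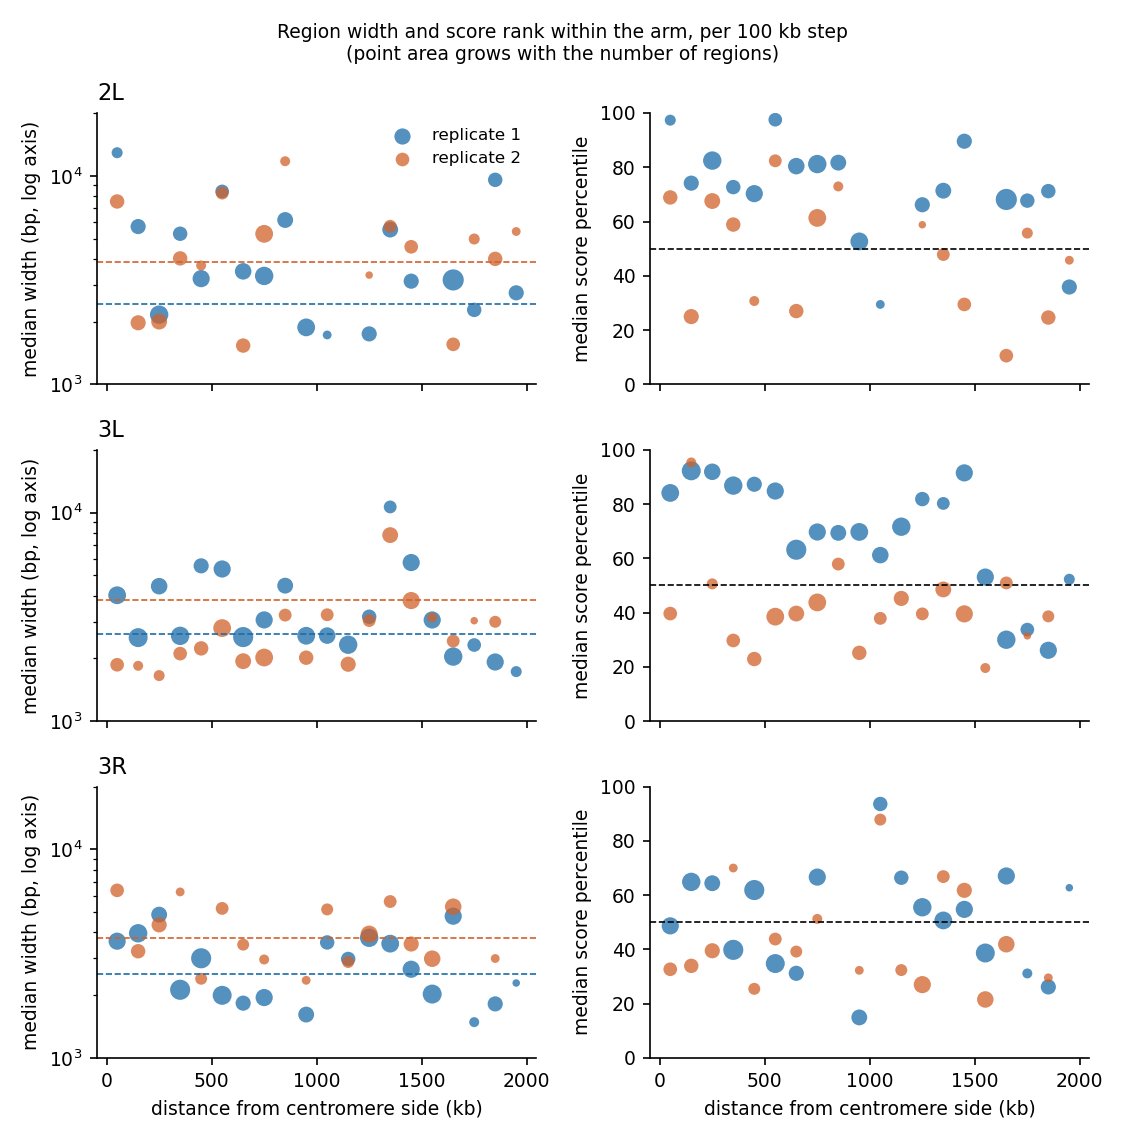
Median region width in bp (left, log axis) and median score percentile within the arm (right) per 100 kb step against distance from the assembled end, in replicates 1 and 2. Point area grows with the number of regions in the step, dashed lines mark the median width of the rest of the arm and percentile 50. On 3L replicate 1 lies above percentile 50 out to 1600 kb and replicate 2 mostly below it.

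Where replicate 2 had a region in the ends, replicate 1 nearly always had one too, much as on the rest of the arms. Of 348 replicate 2 regions, 336 overlapped a replicate 1 region by at least 1 bp, which is 96.6% (95% Clopper-Pearson interval 94.1 to 98.2), against 95.05% (94.1 to 95.9) on the rest of the 3 arms. Of 613 replicate 1 regions, 301 or 49.1% (45.1 to 53.1) overlapped replicate 2, against 53.9% (52.5 to 55.4). Replicate 1 covered 49.9% of bases in the ends and 23.9% on the rest, so its regions are easier to meet by 1 bp in the ends. The intervals take in counting error only, and neighbouring regions are not independent.

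The regions matched less well in extent on 2L and 3L. With an overlap of at least 50% of both regions, 45 of 103 replicate 2 regions on the 2L end (43.7%, 33.9 to 53.8) and 51 of 137 on the 3L end (37.2%, 29.1 to 45.9) had a partner. On the rest of these arms 75.7% and 75.1% did. On the 3R end 79 of 108 (73.1%, 63.8 to 81.2) did, against 75.1% on the rest of 3R. In the 3 ends 10.9% of replicate 1 regions spanned at least 2 separate replicate 2 regions, against 4.86% on the rest of the arms. Conversely, 14.4% of replicate 2 regions spanned at least 2 of replicate 1, against 20.9%. Bases in both replicates made up 26.3% of the 3 ends, against 15.2% of the rest of the arms. They were 27.5%, 27.5% and 23.8% of the ends of 2L, 3L and 3R. This share rises with coverage, which was higher in the ends. Of replicate 1 bases in regions, 52.7% were shared in the ends, against 63.8% on the rest. For replicate 2 these were 91.9% and 87.5%. The ratio of bases in both replicates to bases in either was 0.504 in the ends and 0.585 on the rest.

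**Figure D5:**
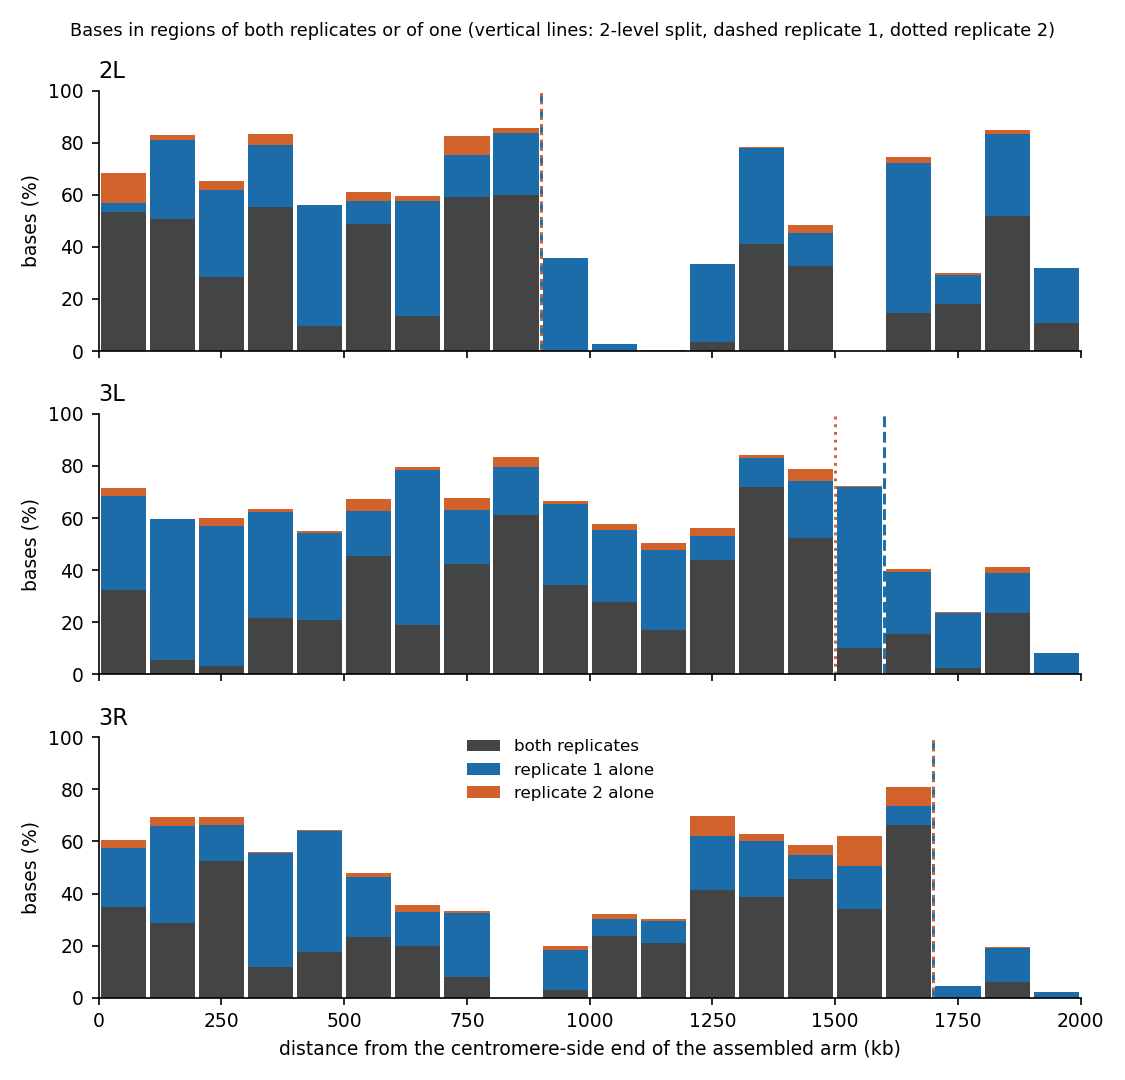
Percent of bases of each 100 kb step in regions of both replicates, of replicate 1 alone and of replicate 2 alone, stacked, against distance in kb from the assembled end of 2L, 3L and 3R. Vertical lines mark the split between 2 levels of coverage in each replicate. Most bases of replicate 2 lie within replicate 1 regions, and sequence of replicate 1 alone fills much of the inner 300 kb of 3L.

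Wide regions raise the coverage by which the splits were placed, so a place inside the splits is partly built in for them. Among combined regions that met both replicates, the 3 widest of each end lay inside the splits. On 2L they were 22834390 to 22876766 (42.4 kb), 22665542 to 22701838 (36.3 kb) and 22167774 to 22202182 (34.4 kb), with 95.95%, 97.6% and 96.5% of bases in replicate 1 regions and 86.7%, 94.1% and 98.4% in replicate 2 regions. The last of these lay in the step from 800 to 900 kb, at the edge of the plateau, and was a single region of 33925 bp in replicate 2. On 3L the widest spanned 67.5 kb at 23216464 to 23283926, across the inner border of the step with the highest coverage, and was 97.2% in replicate 1 and 89.3% in replicate 2. The third widest there, 30.6 kb at 24056798 to 24087434 in the inner 500 kb, was 91.4% in replicate 1 and 54.6% in replicate 2, where it was split over 6 regions. On 3R the widest were 25.3 kb at 1645502 to 1670850, 18.5 kb at 1625842 to 1644354 and 18.4 kb at 211740 to 230108. The first 2 of these lie side by side in the last step before the outer edge, and the replicates covered 88.5% to 96.1% of each.

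High scores came from wide regions and from narrow ones. On 2L the highest combined scores in both replicates were 2.08, 2.06 and 2.05, in regions of 10.6 to 20.9 kb at 22801006 to 22819550, 22462844 to 22473456 and 22231404 to 22252256. On 3R they were 1.80, 1.65 and 1.64, in regions of 5.83 to 10.8 kb at 1372076 to 1382832, 1047632 to 1053466 and 465946 to 476508, and the replicates had 1.81 and 1.84, 1.70 and 1.68, and 1.62 and 1.67 there. The highest score of the 2L end in replicate 1, 3.67 at 22331091 to 22333098, had no region of replicate 2, and the highest in replicate 2, 3.58 at 22661103 to 22662420, had none of replicate 1. These regions were 2008 and 1318 bp wide, and their exact scores were carried by 3 regions of replicate 1 and 2 of replicate 2 in all. On 3L the highest of replicate 2, 3.45 at 24470340 to 24471675, had 15.8% of its bases in replicate 1 regions. On 3R the highest of replicate 1, 2.06 at 715536 to 717526, had no region of replicate 2, while the highest of replicate 2, 1.96 at 1451525 to 1464590, lay wholly within a replicate 1 region and was 13.1 kb wide. Narrow regions high in both replicates also occurred: the combined 3L region at 24133136 to 24135718 had 3.88 in replicate 1 and 3.16 in replicate 2, and that at 24012848 to 24016952, 4.105 kb wide, had 3.05 and 1.64.

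Combined regions that met replicate 1 only made up a larger share in the ends than elsewhere. The combined list still held 99.4% of replicate 2 regions and 86.3% of replicate 1 regions in the ends. On the rest of the arms it held 99.2% and 78.4%. Of the 530 combined regions in the ends, 45.3% met a region of each replicate, 46.2% met replicate 1 only, 1.32% replicate 2 only and 7.17% neither. On the rest of the 3 arms these shares were 56.1%, 31.7%, 3.404% and 8.79%. The 38 regions of the ends that overlapped neither replicate were narrow, and on 2L and 3L they scored high for this list. Pooled, their median width was 1105 bp, against 1207 bp for the 315 such regions on the rest of the arms. Their pooled median score was 0.91, against 0.36 there. By arm it was 1.04 over 15 regions on 2L and 1.07 over 18 on 3L. On 3R it was 0.44 over 5 regions with a median width of 1453 bp. The combined region nearest the assembled end of 2L, 1001 bp at 23006848 to 23007848, had a score of 3.22 that 32 regions of the list carry exactly. In the 3 ends pooled, scores repeated exactly made up 11.7% of the combined list against 8.12% on the rest, 8.91% against 4.33% in replicate 2 and 20.4% against 19.1% in replicate 1.

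The 2 Mb limit fell in poorly covered sequence on 3L and 3R. The last step inside had 8.34% in replicate 1 and no region base in replicate 2 on 3L, and 2.29% and none on 3R, while on 2L it had 31.8% and 10.8%. In replicate 1 the last region inside had its midpoint at 1958 kb on 2L, 1946 kb on 3L and 1997 kb on 3R, and the first outside at 2077, 2018 and 2007 kb. Their scores were 1.02, 0.93 and 0.85 inside against 0.99, 1.26 and 1.46 outside. In replicate 2 the last regions inside lay at 1959, 1838 and 1836 kb with scores of 0.61, 0.56 and 0.94, and the first outside at 2087, 2262 and 2171 kb with 1.31, 1.01 and 1.49.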

How the data were processed

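The deposited files are 3 lists of enriched regions, 1 for each H2Av ChIP replicate and 1 combined list of the series, with a start, an end and a score per region. Per the file headers, positions are those of FlyBase release 5. The submitters' processing notes name Bowtie 0.12.7, which aligns reads. The authors' score is a positive number of unstated definition. The peak caller, its threshold and how the combined list was made are likewise not given in the sources used here. Every ChIP library has, per the labels, an input of equal replicate number, and no input file was analysed here. No file gives a read depth, and no error is derived from it.

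Arm lengths came from the file headers. Bases past the end of 3L (1 region each in replicate 1 and the combined list) were not counted. Coverage counts the bases of a stretch that lie in regions, cut at step borders. Number, width and score use whole regions assigned by midpoint. Measures were computed in Python 3.11.15 with numpy 2.4.6, pandas 2.3.3 and scipy 1.17.1 and tested on simulated lists. Named regions were the 3 widest and 3 highest-scoring combined regions of each end that overlapped both replicates, the widest and highest of each replicate, the longest empty stretches and those next to the 2 Mb limit. The members, measures and alternatives were chosen with earlier results of these data known. Only release 6 gene positions were at hand, and they were not used with release 5 regions, so no genes are assigned and no sequence is shown.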

Additional observations from a re-analysis of the deposited data

How the results depend on the processing

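Coverage of the end minus the rest of the arm kept its direction on 2L, 3L and 3R under every alternative run. It ranged with either replicate left out from 13.2 to 27.7 points on 2L, 12.5 to 33.1 on 3L and 8.10 to 17.3 on 3R. In the higher-scoring 50% of each list it was small in replicate 2 on 3L and 3R, at 2.79 and 2.57 points. Replicate 1 had 33.5 and 13.1 there, and on 2L the replicates had 30.1 and 8.22. For an end of 1 Mb the mean was 32.6 on 2L, and on 3R the replicates had 19.3 and 2.91. Inner minus outer 1 Mb on 2L, 25.0 points, was 32.7 in the combined list and 19.9 for the inner 500 kb against the other 1.5 Mb. On 3L, 9.10 points, it was 22.1 in the combined list and turned to -5.48 for the inner 500 kb. On 3R, -2.14 points, it turned to 5.14 without replicate 2 (-9.42 without replicate 1) and to 16.9 for the inner 500 kb. Median width against the rest of the arm ran from -232 bp (without replicate 1) to 1221 bp on 2L. On 3L it ran from -1282 bp to 377 bp (without replicate 2), and was 158 bp in the combined list. On 3R it was 1024 bp in the higher-scoring 50% of each list, -240.0 bp in the combined list and 477.5 bp once the longer list was cut by score to the length of the shorter. In steps of 50 kb the split on 2L lay at 950 kb in replicate 1 and 900 kb in replicate 2, a mean of 925 kb. In steps of 200 kb the replicates parted on 3R, at 600 and 1800 kb, a mean of 1200 kb. These step sizes, the other settings for the split, the next 2 Mb in place of the rest and ranks within the same class of width were chosen after seeing the data. Of replicate 2 regions in the ends, 89.7% were shared with 50% of the region overlapping, 50.3% with 50% of both, 91.2% in the higher-scoring 50% and 82.8% at equal list length. For replicate 1 regions these were 31.3%, 28.5%, 34.2% and 63.9%. Stricter overlap lowers a share by construction, and otherwise the cause was not tested. Of the 71 alternative values that keep both replicates or use the combined list, 51 moved by less than the spread between replicates (for shares, within the 95% interval), or not at all. With 2 replicates, leaving either out cannot move a mean by more than that spread, so those values say nothing on stability unless the sign turned. No paired analysis was possible because values of the inputs were not analysed here. Unknown depth limits every count of regions.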
